A study of Mus musculus with 36 samples.

Results

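The clustered protocadherins described here are the 52 protein-coding isoforms of the alpha, beta, gamma A and gamma B groups, taken by gene symbol from a table of 55359 genes. They comprise 12 alpha, 22 beta, 12 gamma A and 6 gamma B genes, all on chromosome 18. The 5 C-type genes at the ends of the alpha and gamma clusters have symbols outside this naming rule and were kept as a comparison list.

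The values come from 36 single neurons of the mouse midbrain, sequenced one library per cell. The cells belong to 18 clones of 2 sequenced neurons, and a clone is the progeny of one radial glia cell labelled at embryonic day 12. The labelling used MADM, in which recombination between chromosomes gives the daughters of a dividing cell different fluorescent colours. Recombination was driven by Fz10-CreER in 11 clones (genotype M11GTTG-Fz10-CreER, 22 cells) and by Sox2-CreER in 7 clones (M11GTTG-Sox2-CreER, 14 cells). The label sSC was taken to mean the superficial superior colliculus (22 cells), dSC the deep superior colliculus (12 cells) and PAG the periaqueductal grey (2 cells). By tissue and driver there were 15 sSC and 7 dSC cells from Fz10-CreER clones, and 7 sSC, 5 dSC and 2 PAG cells from Sox2-CreER clones. The mice were of both sexes on a mixed C57/Bl6, FVB and CD1 background, and the age at collection of each cell is not given in the sources used here. Siblings share an animal by design, but the labels name no animals, so several clones may share one. Only the cells that were sequenced represent a clone, and a clone reports on the progenitors in which its driver was active.

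Clustered protocadherins are cell-surface cadherins encoded in tandem arrays. In the alpha and gamma clusters each isoform has its own promoter and its own large first exon, which is spliced to constant exons shared by the cluster, whereas each beta isoform is a single-exon gene. Individual neurons choose promoters largely at random, with CTCF and cohesin looping a promoter to an enhancer and DNA methylation silencing others. The proteins bind the same isoforms on facing membranes, and the combination on a neuron lets its branches recognise and avoid each other. A question that the clonal design poses is whether neurons from one progenitor carry the same combination.

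Values are the authors' expression signal, named TPM of exon plus intron, which sums to 2000000 in each cell. An isoform was called detected at a value of 1 or more, and the same cutoff gave between 2661 and 16769 detected genes per cell (median 12058). Read depth is unknown, and a 0 can be a failed capture. The summed value of 5 neuronal markers (Snap25, Syt1, Rbfox3, Stmn2, Tubb3) was between 356.8 and 5106 in sSC, between 2505 and 4683 in dSC and at 4459 and 4680 in the 2 PAG cells. RNA of other cell types was also present. The 6 oligodendrocyte markers summed to 916.4 to 20420 in sSC and 705.2 to 6640 in dSC, the 6 astrocyte markers to 69.6 to 1387 and 353.4 to 2211, and the 6 microglial markers to 5.804 to 5559 and 0 to 5404. The 4 red blood cell markers summed to 0 to 9623 in sSC and 4.721 to 5533 in dSC, and the 4 endothelial markers to 0 to 91.91 and 0.1891 to 225.9. No list had a defining marker at 0 in every cell, and the part of this RNA in the isoform values was not tested. The cells with the fewest genes, B.2 with 2661 and H.1 with 6180, had no isoform at 1 or more.

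Most neurons had a small set of detected isoforms, and no set was repeated. The number of isoforms per cell ran from 0 to 16 with a median of 6. It was 0 in 2 cells, 1 in 6 cells and 2 or more in 28 cells, of which 5 cells had 10 or more. The 34 cells with any isoform had 34 distinct sets. With a median of 3 cells per isoform, repeated sets would be rare in any case. Other genes of like detection were not compared, and a failed capture can also make sets differ. In cells with 2 or more isoforms the most abundant one held a median of 39.15% of the summed value of the set, with a range from 16.38% to 94.62%.

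**Figure D1:**
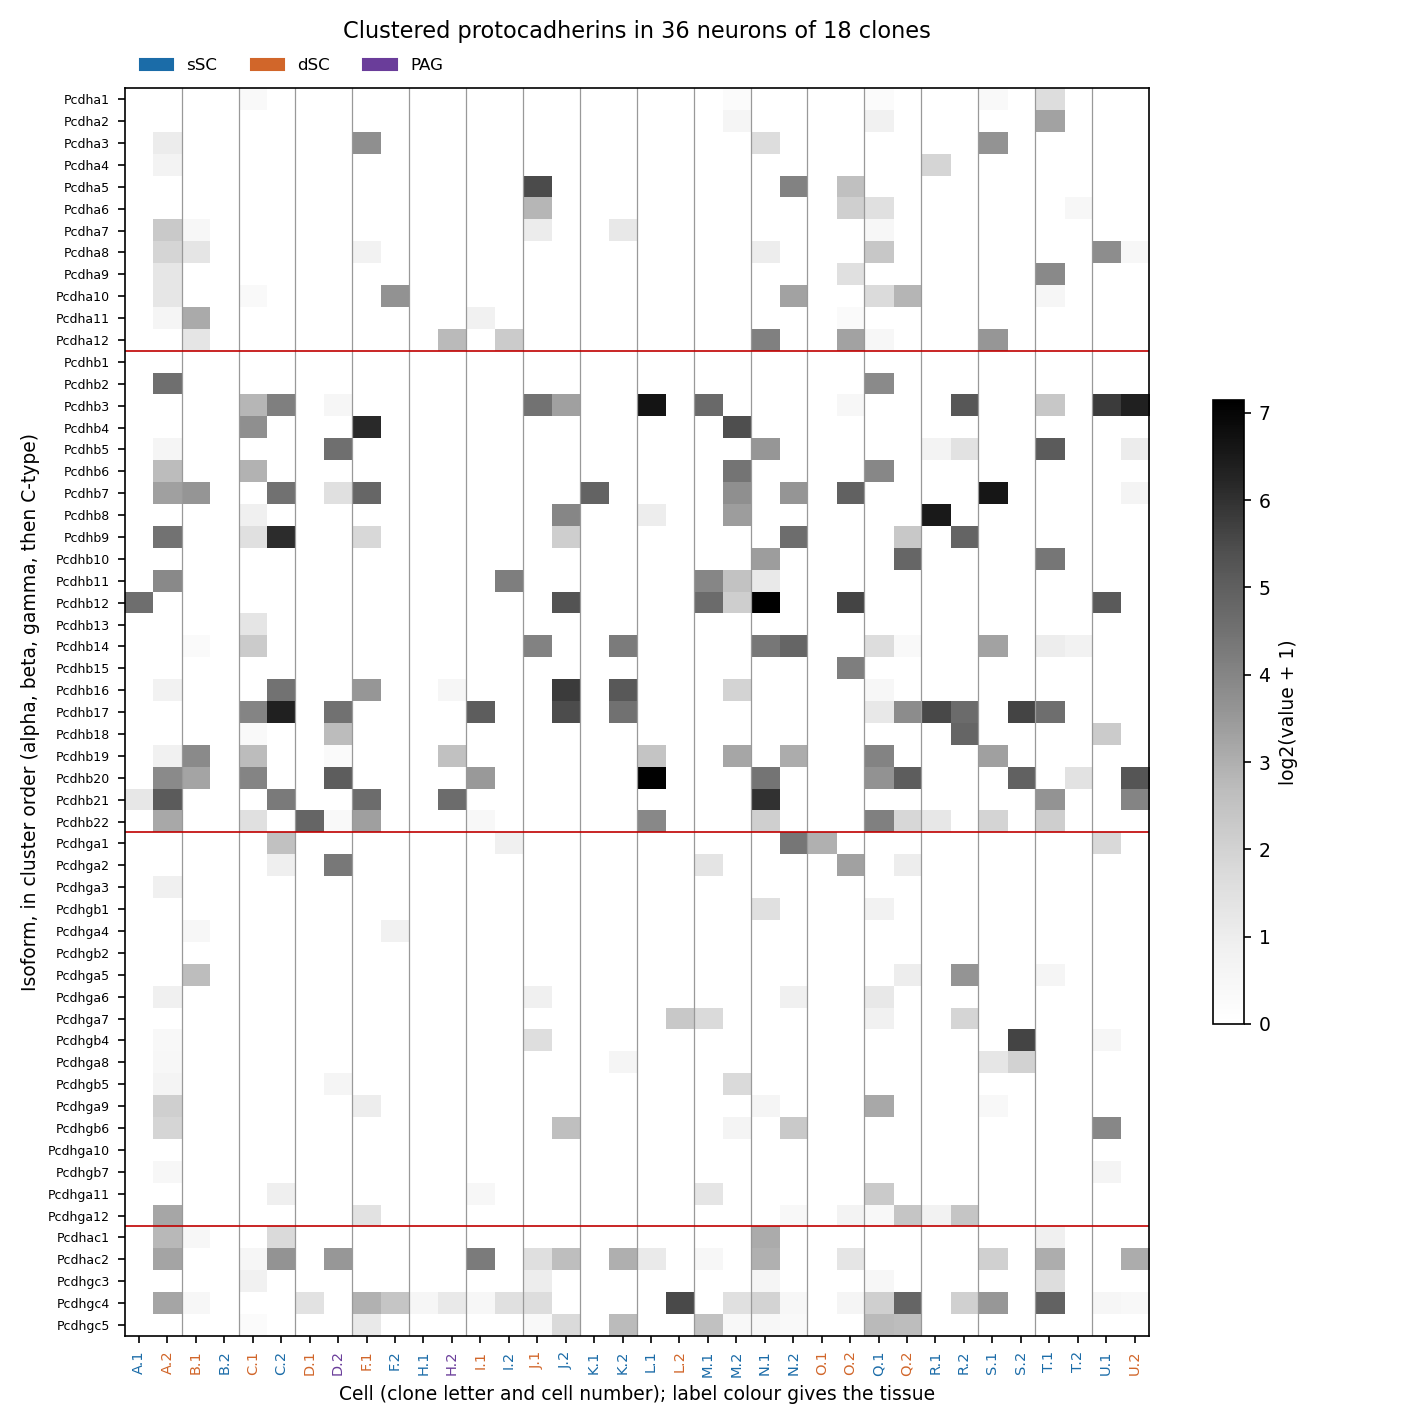
Values of the 52 isoforms and the 5 C-type genes (rows, in cluster order) in each of the 36 neurons (columns, siblings side by side between grey lines), as log2(value + 1). Label colours give the tissue and red lines separate the alpha, beta, gamma and C-type groups. Dark entries are scattered over the beta rows, and few rows are dark in both cells of a clone.

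Beta isoforms made up most of what was detected. Of 200 detections, 130 were beta, 36 alpha, 26 gamma A and 8 gamma B. As a share of all entries of gene and cell, 16.41% of beta entries were at 1 or more, against 8.333% for alpha, 6.019% for gamma A and 3.704% for gamma B. A beta isoform was present in 31 cells, an alpha in 17 and a gamma A or B in 20. The most abundant isoform of a cell was a beta in 30 of 34 cells, an alpha in 2 and a gamma A in 2. Detected beta values had a median of 15.12, and the medians were 3.971 for alpha, 3.552 for gamma A and 3.324 for gamma B. These groups are not measured alike. Every beta gene is a single exon, and all but Pcdhb21 and Pcdhb22, which overlap each other, share no exon bases with another clustered gene. Of the exon bases of an alpha isoform 38% to 54.9% are shared within the clusters in GENCODE M21, and of a gamma isoform 31.5% to 66.8%. Reads from the shared exons and the long introns cannot be assigned to one isoform, and how the authors counted them is not given in the sources used here. All of the alpha, gamma A and gamma B genes also overlap genes on the opposite strand, as does Pcdhb12 with Gm37446, and whether strand was used is likewise not given.

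Of the 52 isoforms, 46 (88.46%) were at 1 or more in some cell, against 82.54% of all 21877 protein-coding genes in the table. Each isoform was nevertheless sparse, with a median of 3 cells per isoform against 13 for protein-coding genes. There were 9 isoforms detected in 1 cell alone, and 6 in no cell.

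Among the alpha isoforms, whose first exons lie upstream of the beta cluster, all 12 were detected. Pcdha12 was in 6 cells, with a highest value of 16.3, and Pcdha8 and Pcdha10 were in 5 cells each. Pcdha1, Pcdha2, Pcdha4 and Pcdha11 were each in 1 cell. The highest alpha value was 44.15, for Pcdha5 in J.1, where it was the most abundant isoform. The largest number of alpha isoforms in a cell was 5, in A.2.

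Among the beta isoforms, Pcdhb17 and Pcdhb20 were each detected in 12 cells. Pcdhb22 was in 11 cells, and Pcdhb3 and Pcdhb7 were in 10 each. Pcdhb17 ranged from 1.282 to 80.11 where detected, with a median of 23.73. Pcdhb22, present in nearly as many cells, had a median of 3.393 where detected. Pcdhb1 was listed at 0 in all 36 cells, and Pcdhb13 and Pcdhb15 were each in 1 cell. The 3 highest values of any isoform were betas: Pcdhb12 at 140.6 in N.1, Pcdhb20 at 135.3 in L.1 and Pcdhb3 at 98.57, also in L.1. A single neuron held up to 10 beta isoforms, the number found in C.1, which had no alpha and no gamma isoform.

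Among the gamma A isoforms, Pcdhga1, Pcdhga2 and Pcdhga12 were each in 4 cells. Pcdhga3 and Pcdhga4 did not reach 1 in any cell, and Pcdhga10 was listed at 0 throughout. Among the gamma B isoforms, Pcdhgb6 was in 4 cells and Pcdhgb4 in 2, with a value of 48.12 in S.2. Pcdhgb2 was listed at 0 in all cells and Pcdhgb7 did not exceed 0.557. No cell had more than 3 gamma A or B isoforms.

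**Figure D2:**
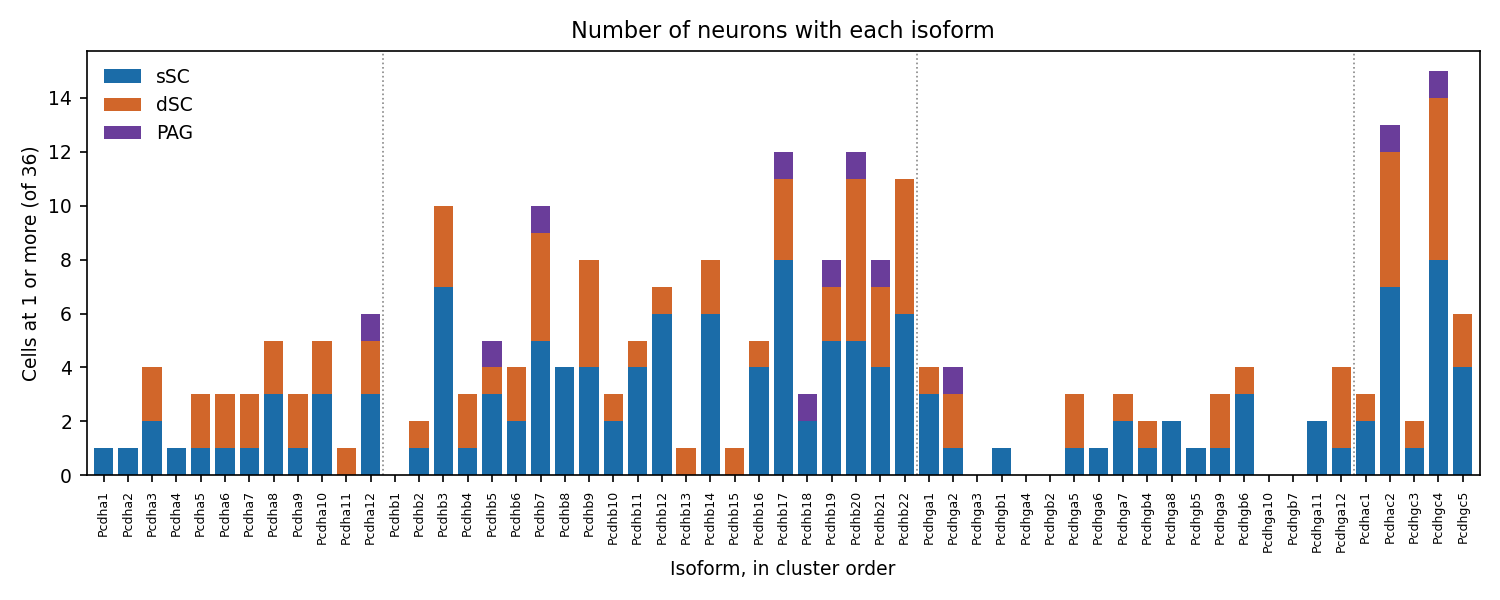
Number of neurons (of 36, vertical axis) in which each isoform was at 1 or more, in cluster order, with bars divided by tissue; dotted lines separate the alpha, beta, gamma and C-type groups. Bars reach 12 cells for Pcdhb17 and Pcdhb20, while no alpha isoform exceeds 6 cells and no gamma A or B isoform exceeds 4.

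The C-type isoforms, which are expressed more uniformly in many neurons than the others and serve here as the comparison, were detected 39 times over 5 genes. Their entries were at 1 or more in 21.67% of cases, against 16.41% for the betas. Pcdhgc4, known for its role in neuronal survival, was in 15 cells, with values from 1.245 to 44.29 where detected. Pcdhac2, known for its role in the tiling of serotonergic axons, was in 13 cells and reached 18.13. Pcdhgc5 was in 6 cells, Pcdhac1 in 3 and Pcdhgc3 in 2. The C-type genes share exons with their clusters as the other alpha and gamma genes do. Neither Pcdhgc4 nor Pcdhac2 was present in most neurons at this cutoff.

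The number of isoforms was higher in cells with more detected genes. Over the 36 cells, isoforms per cell and detected genes had a Pearson correlation of 0.749 and a Spearman correlation of 0.734. Both counts come from the same library, so this is a description. The Pearson correlation was 0.750 within sSC and 0.868 within dSC, and it was 0.738 when the 2 cells with gene numbers farthest from the median were set aside. The 18 cells with the fewest genes had a median of 2 isoforms, and the 18 with the most genes had a median of 8. The relation was not tight for single cells: T.2 had 13089 genes and 1 isoform, Pcdhb20 at 1.722, while J.2 had 9297 genes and 7 isoforms. By group, the correlation with detected genes was 0.662 for beta, 0.493 for alpha, 0.471 for gamma A and B together and 0.383 for the C-type genes. Isoform numbers of different clusters were only loosely related across cells, at 0.324 for alpha and beta, 0.360 for beta and gamma and 0.312 for alpha and gamma.

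**Figure D3:**
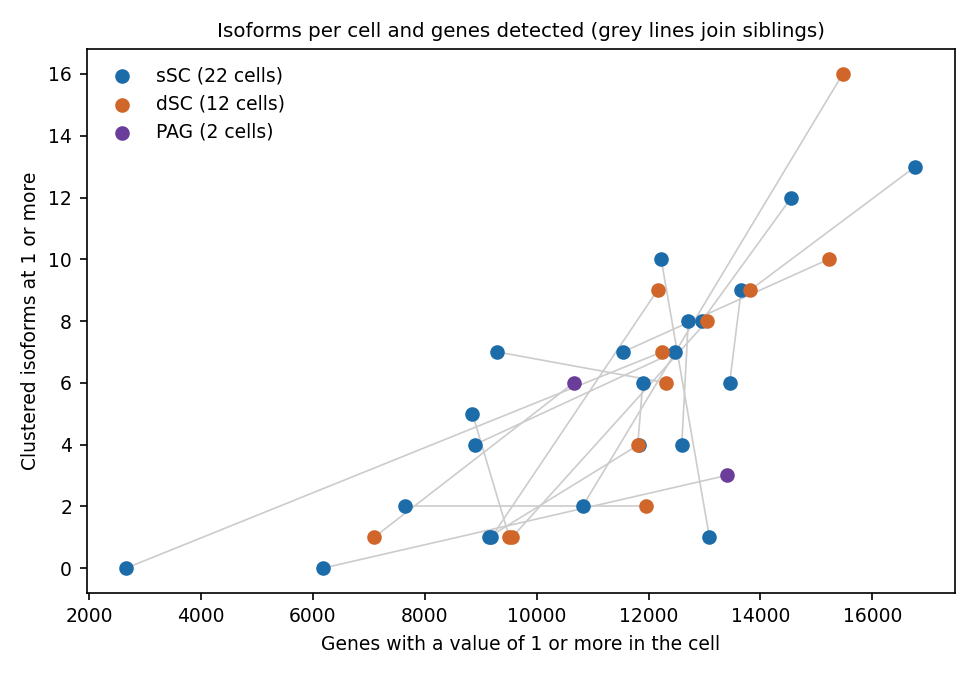
Clustered isoforms at 1 or more (vertical axis) against genes at 1 or more (horizontal axis) in the 36 neurons, coloured by tissue, with grey lines joining siblings. Cells with more detected genes have more isoforms, from 0 in the 2 cells with the fewest genes to 16 in A.2.

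On average sibling neurons had no more isoforms in common than neurons of different clones. The overlap of 2 cells was measured by the Jaccard index, the number of isoforms found in both divided by the number found in either. The 18 sibling pairs had a mean index of 0.0604 ± 0.0756 (SD, n = 18 clones), a median of 0.0263 and a maximum of 0.222. Each clone was set against all pairs of cells from different clones with the same tissues and the same driver, between 9 and 101 pairs per clone and 282 distinct pairs in all. Clones with the same tissues and driver were set against the same pairs, which were not limited to the clone's own cells. The mean of these non-sibling pairs, averaged over clones, was 0.0759 ± 0.0144 (SD, n = 18). Because clones share pairs, this SD is taken over repeated values and does not measure a spread between independent clones. The sibling minus non-sibling difference was -0.0155 ± 0.0776 (SD, n = 18), smaller than its spread over clones. The sibling index exceeded the mean of its matched non-sibling pairs in 6 of 18 clones. No isoform was shared in 9 of 18 sibling pairs (50%) and in 47.87% of the non-sibling pairs. No p-value is given, since the isoforms were chosen with results of these cells known.

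**Figure D4:**
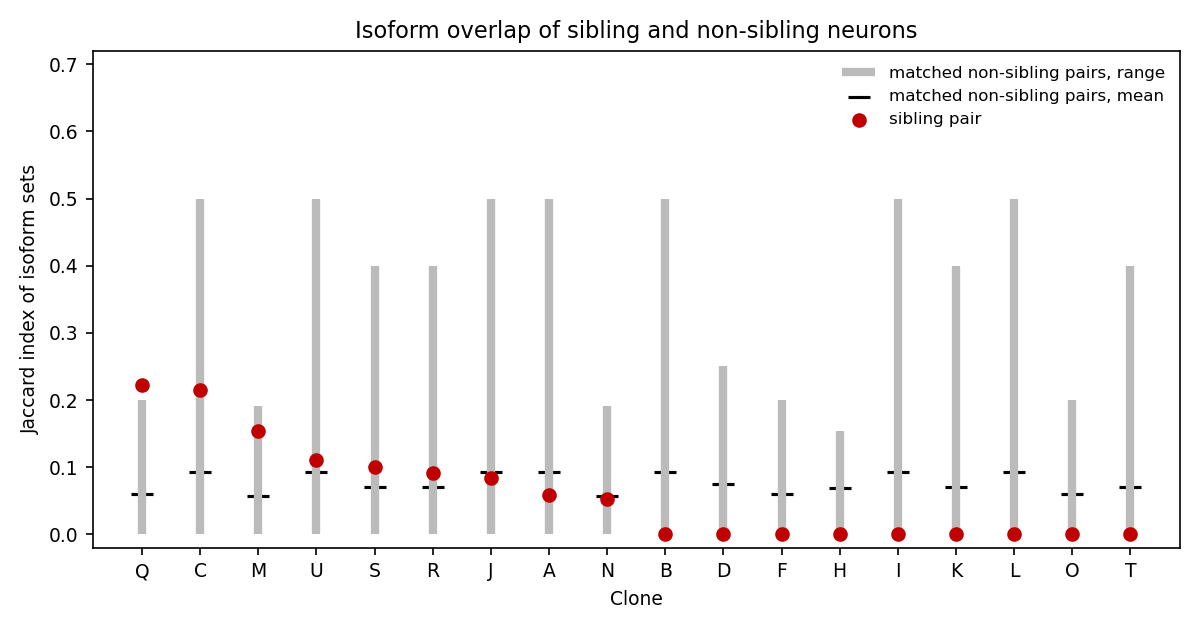
Jaccard index of the isoform sets (vertical axis) of each clone's sibling pair (red points), with the mean (black dash) and range (grey bar) of non-sibling pairs of the same tissues and driver. Clones are ordered by the sibling value, and the sibling points of 9 of 18 clones lie at 0.

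The few shared isoforms were mostly betas that many cells carried. Siblings shared 15 isoforms in all, of which 13 were beta, 1 alpha and 1 gamma A, a mean of 0.833 per pair against 0.876 in the matched non-sibling pairs. Clone Q had the highest index, 0.222, with Pcdha10, Pcdhb17, Pcdhb20 and Pcdhb22 in both cells, and was the 1 clone above the range of its matched pairs, whose maximum was 0.2. Its sSC cell Q.1 and dSC cell Q.2 had values of 2.229 and 6.334 for Pcdha10, 1.282 and 13.01 for Pcdhb17, 11.75 and 32.02 for Pcdhb20, and 16.27 and 2.568 for Pcdhb22. Q.1 also had the most detected genes of any cell, 16769. Clone C followed at 0.214, sharing Pcdhb3 (6.192 in the dSC and 16.8 in the sSC cell), Pcdhb9 (1.806 and 67.35) and Pcdhb17 (15.1 and 80.11). In each of these 3 betas the sSC cell of clone C had the higher value. In clone M both sSC cells held Pcdhb11 and its neighbour Pcdhb12, and in clone U the sSC and dSC cells held Pcdhb3 at 54.07 and 80.07.

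Every one of the 9 clones without a shared isoform had a cell with few isoforms, 2 at most. In clones B and H one sSC cell had no isoform, so an overlap could not be seen. In clone F the dSC cell had 9 isoforms and its sSC sibling had Pcdha10 alone. In clone T one sSC cell had 10 isoforms and the other had Pcdhb20 alone, which the first lacked. The 2 cells had 1 and 8 isoforms in clone O, 1 and 4 in clone K, 1 and 6 in clone D, 5 and 1 in clone L, and 2 each in clone I. In 8 of the 9 clones with a shared isoform both cells had 4 or more isoforms, and the exception was clone A with 2 and 16. The overlap coefficient, which divides by the smaller of both sets, was 0.172 in siblings and 0.265 in matched non-siblings, a mean difference of -0.0925 ± 0.175 (SD, n = 16 clones with a value).

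Several pairs of cells of different clones had a higher index than any sibling pair. The highest values were taken over 282 matched non-sibling pairs and only 18 sibling pairs. They therefore do not show which kind of pair is more alike. I.1 and S.2 had an index of 0.5, sharing Pcdhb17 and Pcdhb20 out of 2 and 4 isoforms. C.2 and J.2, both sSC cells with 7 isoforms, shared Pcdhb3, Pcdhb9, Pcdhb16 and Pcdhb17, an index of 0.4. The beta cluster alone gave a sibling mean of 0.0800 and a non-sibling mean of 0.0967. Adding the C-type genes gave 0.0662 and 0.0918. Among the 8 clones in which both cells had 10000 or more genes, a restriction chosen after the data were seen, the sibling mean was 0.113 and the non-sibling mean 0.114. Over all genes of the table the corresponding index was 0.514 ± 0.115 in siblings and 0.512 in non-siblings, a difference of 0.00188 ± 0.128 (SD, n = 18), and 12 of 18 sibling pairs were above the mean of their non-sibling pairs.

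By tissue of the pair, the 9 clones with 1 cell in sSC and 1 in dSC had a sibling mean of 0.0766 against 0.0851 in matched non-siblings, and 3 of 9 were above. The 6 clones with both cells in sSC had 0.0662 against 0.0661, with 3 of 6 above. The clone with both cells in dSC and the 2 clones with a PAG cell had no shared isoform. By driver, the Fz10-CreER clones had a sibling mean of 0.0599 against 0.0844, with 4 of 11 above, and the Sox2-CreER clones 0.0612 against 0.0626, with 2 of 7 above. These differences lay within the spread over clones of 0.0683 and 0.0944 (SD of sibling minus non-sibling), and the difference between drivers was not tested.

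Of the 37 isoforms found in 2 or more cells, 26 were never in both siblings of a clone. An isoform in few of the 36 cells can rarely fall in both siblings, and no such count was made for other genes detected as sparsely. Per pair, siblings shared 0.833 isoforms and matched non-siblings 0.876. The counts by isoform are therefore a description and give no measure of avoidance between siblings. Pcdhb7 was in 10 cells of 10 different clones, never in both siblings. Pcdhb19 (8 cells), Pcdha12 (6 cells), and Pcdha8, Pcdhb5 and Pcdhb16 (5 cells each) were likewise never in both. Pcdhb3 was in both siblings of 3 clones (C, J and U) and in 1 cell of 4 others. Pcdhb17 was in both siblings of 3 clones (C, Q and R) and in 1 cell of 6 others. Pcdhb20, present in as many cells as Pcdhb17, was in both siblings of clone Q and in 1 cell of 10 other clones. The C-type Pcdhgc4 was in both siblings of 2 clones and in 1 cell of 11 others, and Pcdhac2 in both of 1 clone and in 1 cell of 11 others.

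Whether siblings had similar levels was then tested gene by gene, over the 16 clones with both cells in sSC or dSC. Limma's moderated F test with tissue as a covariate and Benjamini-Hochberg adjustment over 15132 genes gave 3 genes past an adjusted p of 0.05 (0.0198% of the genes tested). Of the 52 isoforms, 7 reached a value of 1 in enough cells (25% of them) for a test, all of them betas, and 0 of these passed. At an unadjusted p under 0.05 there was 1 of 7, against 7.8% of all genes tested. It was Pcdhb3, whose deviations from the tissue means had a sibling correlation of 0.38 (limma p = 0.0302, adjusted p = 0.585). The adjusted p of Pcdhb3 was between 0.557 and 0.861 over the alternative settings. The sibling correlations of the others with the smallest p were 0.23 for Pcdhb14, 0.14 for Pcdhb17, -0.06 for Pcdhb9, -0.15 for Pcdhb20 and -0.10 for Pcdhb22, with adjusted limma p between 0.658 and 0.863. The seventh, Pcdhb7, had -0.36 (adjusted p = 0.927), so that 4 of the 7 were below 0, beside 47.85% of all genes tested. Those of the C-type Pcdhgc4 and Pcdhac2 were -0.06 and -0.33. Without this filter on low values 2 of 49 isoforms had an unadjusted limma p under 0.05, against 1532 of 30677 genes. They were Pcdhb3 and Pcdhga8, and the latter had a sibling correlation of 0.75 (limma p = 0.0176, adjusted p = 0.719). Pcdhga8 reached 1 in 2 cells alone, both of clone S, at 1.431 and 2.956.

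Between tissues, isoform numbers overlapped widely. Over clone means, sSC had 5 ± 3.62 isoforms per cell (SD, n = 16; from 0 to 13, median 5.5) and dSC had 6.32 ± 4.54 (SD, n = 11; from 1 to 16, median 6). The sSC minus dSC difference of -1.32 was smaller than either spread. Detected genes moved the same way, at 10541 ± 3324 in sSC and 12081 ± 2379 in dSC. Per 1000 detected genes the difference in isoforms was -0.0599. Of the 9 clones with siblings in both tissues, 4 had more isoforms in sSC, 4 had more in dSC and clone I had equal numbers, with a mean difference of -2.33 ± 6.19 (SD, n = 9). The sSC cell had fewer detected genes in 7 of the 9. Clone A had 2 isoforms in sSC and 16 in dSC, and clone Q had 13 in sSC and 9 in dSC. By group, sSC and dSC means were 0.75 and 1.36 for alpha, 3.41 and 3.86 for beta, and 0.844 and 1.09 for gamma A and B together. The 2 PAG cells, D.2 and H.2, had 6 and 3 isoforms.

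No isoform passed the test between sSC and dSC. In limma with Benjamini-Hochberg adjustment 5 isoforms, all betas, could be tested, and 0 of 5 passed an adjusted p of 0.05, as did 0 of 14613 genes (0%). At an unadjusted p under 0.05 there were 0 of 5, against 754 genes (5.16%). Pcdhb20 had the smallest p. It was detected in 5 of 22 sSC cells (lowest 0, median 0, highest 135.3) and in 6 of 12 dSC cells (lowest 0, median 4.308, highest 37.34). The groups overlapped, with the highest value in sSC. On the log2(value + 1) scale, which understates differences of low values, the sSC minus dSC difference of Pcdhb20 was -1.26 ± 0.78 (SE; 16 and 11 clone means; limma adjusted p = 0.971).

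The other 4 betas lay on both sides of 0. Pcdhb17 was in 8 of 22 sSC and 3 of 12 dSC cells, up to 80.11 and 32.07, with a difference of 0.42 ± 0.79 (SE). Pcdhb3 was in 7 and 3 cells, up to 98.57 and 80.07, with a difference of 0.37 ± 0.82. Pcdhb22 was in 6 and 5 cells, up to 16.27 and 27.17, at -0.64 ± 0.58. Pcdhb7 was in 5 and 4 cells, up to 95.21 and 29.58, at -0.48 ± 0.61. The adjusted limma p of these 4 was between 0.971 and 0.986. All tested genes had a median difference of -0.31, so that the isoforms' median of -0.48 is to be read against it. With clone as a block, over the 9 clones with both tissues, the differences were -1.58 for Pcdhb20, 0.01 for Pcdhb17, 0.69 for Pcdhb3, -0.25 for Pcdhb22 and -0.87 for Pcdhb7, and none passed. In that fit all genes had a median of -0.66 and the 5 isoforms one of -0.25, so the isoforms' median lay above that of all genes with the block and below it without.

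**Figure D5:**
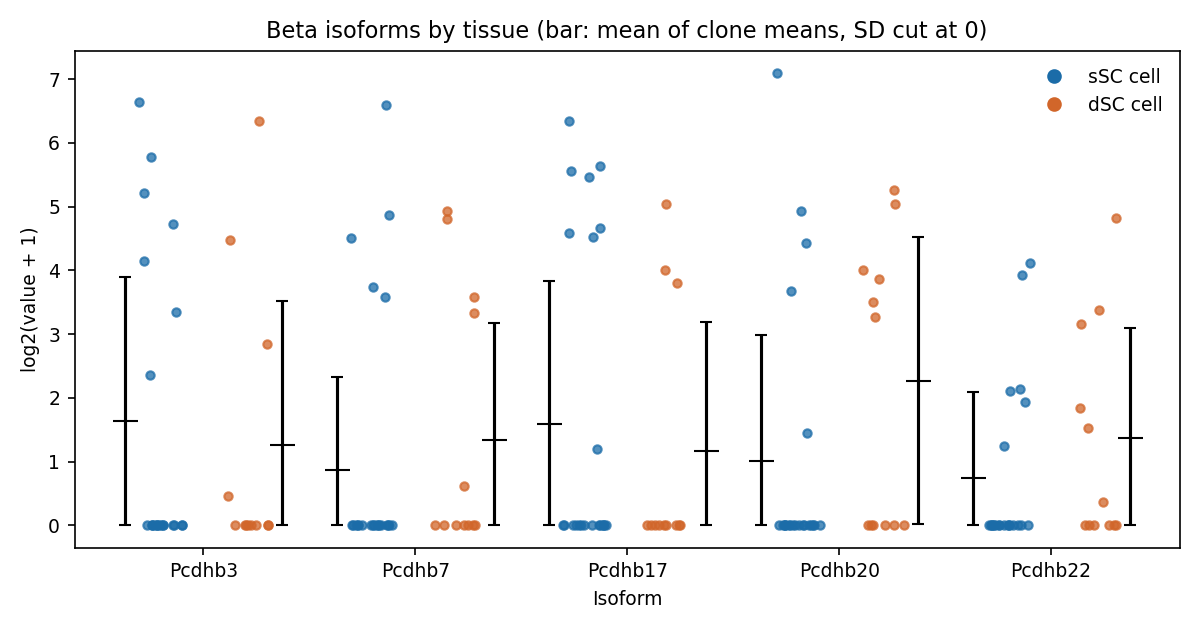
The 5 beta isoforms that could be tested between tissues, as log2(value + 1) in each sSC (blue) and dSC (orange) cell. Black bars give the mean of clone means with SD, cut at 0, and in each isoform both tissues have cells at 0 and cells above 2.

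The remaining isoforms were below the filter on low values. Without the filter limma gave values for 49 of the 52 isoforms, and 0 passed the adjusted threshold. At an unadjusted p under 0.05 there were 0 of 49, against 3.3% of all 30853 genes. Pcdha11 had the smallest p of the 49, with a difference of -0.42 ± 0.23 (SE; limma p = 0.076, adjusted p = 0.799). It reached 1 in 1 dSC cell and in 0 sSC cells. Pcdhb12 was in 6 sSC cells and 1 dSC cell, with a difference of 1.12 ± 0.67 (SE; limma p = 0.103, adjusted p = 0.799). Pcdhb8 was in 4 sSC cells and no dSC cell (0.55 ± 0.40). Pcdhga12 was in 1 sSC and 3 dSC cells (-0.54 ± 0.33). The C-type Pcdhgc4 was in 8 of 22 sSC and 6 of 12 dSC cells, with medians of 0.180 and 1.10, and a difference of -1.02 ± 0.58 (SE; limma adjusted p = 0.971). Pcdhac2 had -0.39 ± 0.53 (SE).

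The driver comparison within sSC asked whether the progenitors marked by Fz10-CreER and by Sox2-CreER gave neurons with other isoforms. Clone means were 4.41 ± 2.36 isoforms per cell for Fz10-CreER (SD, n = 11; from 0 to 7, median 5.5) and 6.3 ± 5.65 for Sox2-CreER (SD, n = 5; from 0 to 13, median 7.5). The difference of -1.89 was smaller than the spread of the Sox2-CreER clones, and without clone Q it was -0.216. Detected genes again moved in the same direction, at 9928 ± 2874 and 11890 ± 4181.

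Of the 5 isoforms that passed the filter on low values, Pcdhb17 and Pcdhb3 had the smallest p between drivers, without passing the test. Pcdhb17 was in 7 of 15 Fz10-CreER sSC cells, up to 80.11, and in 1 of 7 Sox2-CreER sSC cells, at 1.282, a difference of 1.97 ± 1.05 (SE; 11 and 5 clone means; limma p = 0.0706, adjusted p = 1.000). Pcdhb3 was in 6 of 15 and 1 of 7 cells, up to 98.57 and 25.57, a difference of 1.68 ± 1.08 (SE; limma adjusted p = 1.000). Over all tissues, Pcdhb3 was in 9 of the 22 Fz10-CreER cells and 1 of the 14 Sox2-CreER cells. These Fz10-CreER cells include both siblings of clones C, J and U, so they are not independent. The count mixes tissues and was not set against other genes. The other tested betas had -0.82 ± 0.65 for Pcdhb14, -0.43 ± 0.69 for Pcdhb22 and -0.03 ± 1.04 for Pcdhb12. Of the 5 isoforms tested, 0 passed an adjusted p of 0.05, as did 0 of 14320 genes (0%), and 0 of 5 had an unadjusted limma p under 0.05, against 587 genes (4.1%). The median over all genes tested was -0.38. Without the filter 0 of 45 isoforms passed, and 2 of 45 had an unadjusted p under 0.05, against 4.8% of all genes. These were Pcdha10 (-1.38 ± 0.50, SE; limma p = 0.0112, adjusted p = 0.753) and Pcdhb6 (-1.23 ± 0.52, SE; p = 0.0252, adjusted p = 0.753), both with the lower mean in Fz10-CreER clones. Over all tissues Pcdha10 was in 1 Fz10-CreER and 4 Sox2-CreER cells, the latter including both siblings of clone Q. The C-type Pcdhgc4 and Pcdhac2 had -0.73 ± 0.60 and 0.69 ± 0.64.

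Within the beta cluster, the presence of one isoform was weakly related to that of another. Detection of 2 isoforms across the 36 cells was compared by the phi coefficient, the correlation of presence, for the 16 isoforms in 5 or more cells. Over 78 pairs of 13 beta isoforms the median phi was 0.0639, between -0.284 and 0.412. Pairs of cells share depth and clones, so these values are a description. The 5 pairs of neighbouring betas had a median of 0.226 and all lay above 0, while the 73 other pairs had a median of 0.0472. The highest value was that of the neighbours Pcdhb11 and Pcdhb12 (0.412, 3 cells with both). These cells were the siblings M.1 and M.2 of clone M, and N.1, so that clone M counts with both of its cells. Pcdhb21 and Pcdhb22, whose exons overlap, had 0.226. At the low end, Pcdhb11 and Pcdhb17, and likewise Pcdhb16 and Pcdhb20, were never found in the same cell (-0.284). The 3 pairs among Pcdha8, Pcdha10 and Pcdha12 ranged from -0.18 to 0.303.

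Non-clustered protocadherins and genes that act with the clusters were detected in more cells by the median of each list. None of those tested passed between groups. The 12 non-clustered protocadherins, single genes outside the arrays, were in a median of 27 cells each. Pcdh7 and Pcdh9 were in all 36, and Pcdh12 was in 2. The 19 genes of promoter choice and chromatin were in a median of 30 cells, with Ctcf, the looping factor, in 36 (lowest 10.18, median 67.58, highest 210.8). The cohesin subunits Rad21 and Smc3 were each in 31 cells, and Dnmt3b, a DNA methyltransferase of early development, was in 5. The 16 partners and processing genes, which include the WAVE complex and the proteases that cleave protocadherins, were in a median of 32 cells.

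Between sSC and dSC, 0 of 11 tested non-clustered protocadherins, 0 of 18 chromatin genes and 0 of 16 partners passed. The chromatin genes were lower in sSC in 16 of 18, with a median of -0.43, beside 67.34% of all genes lower and a median of -0.31. With detected genes as a covariate 45.72% of all genes were lower, with a median of 0.07. The chromatin genes with the smallest p without the covariate were Pds5a, a cohesin regulator (-1.37 ± 0.75, SE), Tet1, a DNA demethylase (-1.15 ± 0.68), and Smchd1, a repressor of the clusters (-1.27 ± 0.82). With the covariate they were at -0.84 ± 0.66, -0.83 ± 0.65 and -0.85 ± 0.78 (SE; limma adjusted p = 0.994 for each). Values of the other chromatin genes with the covariate are not given here. Among partners the smallest p were those of Cyfip1 of the WAVE complex (-1.25 ± 0.75), Ncstn of gamma-secretase (-1.31 ± 0.88) and Wasf3 (0.97 ± 0.65). Among non-clustered protocadherins they were those of Pcdh7 (-1.02 ± 0.69), Pcdh1 (0.76 ± 0.64) and Pcdh15 (-0.82 ± 0.73).

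With clone as a block, over the 9 clones with both tissues, several of these differences were larger, and again 0 of the 45 genes of the 3 lists passed. At an unadjusted p under 0.05 there were 7 of 45, against 9.02% of all genes. All 7 had the lower mean in sSC, beside 76.9% of all genes lower in that fit. The smallest p was that of Adam10, a protease that sheds protocadherin ectodomains (-2.68 ± 0.91, SE; limma p = 0.00863, adjusted p = 0.490). Tet1 had -2.25, Ncstn -2.40, Cyfip1 -2.44 and Pcdh15 -1.68, and the others were Fyn, a Src-family kinase (-1.87), and Abi1 of the WAVE complex (-1.95). Pds5a was at -2.06, Smchd1 at -2.09 and Pcdh7 at -1.85, beside the median of -0.66 over all genes. Between drivers 0 genes of the 3 lists passed. In the clone effect 0 passed. At an unadjusted limma p under 0.05 there was 1 of the 45 genes, Adam10, against 7.8% of all genes tested. The sibling correlation of Adam10 was 0.41 (limma p = 0.00494, adjusted p = 0.478).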

How the data were processed

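Smart-Seq libraries of polyadenylated RNA from 36 neurons were analysed. The deposited values are a normalised signal per gene, under the authors' name TPM exon plus intron. Per the submitters' processing notes STAR 2.7.9a, R 4.0.3 and GRCm39 were used. No counting program, annotation or strand setting is given in the sources used here. Plain TPM was planned for, and the log-scale tests serve this signal too. Symbols (52083 genes), gene types and shared exons came from GENCODE M21, an older build, so no positions are given. That annotation gives the symbol Pcdha11 to both of a pair of identifiers, and the one paired with RefSeq's Pcdha10 transcript was named Pcdha10. The plan counted Pcdhgb8, which M21 types as a pseudogene, and it was left out. Isoforms and gene lists were chosen with earlier results of these data known. No sequence is printed.

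Where a clone had both cells in 1 tissue, their mean was used. Log2(value + 1) was fitted with limma 3.58.1 (R 4.3.3, empirical Bayes with a trend, robust) for genes reaching 1 in 25% or more of the compared cells, with Benjamini-Hochberg adjustment over all of them and a threshold of 0.05. The fit was run on simulated data with large shifts in genes detected in many cells. Its power for genes as sparse as these isoforms was not tested. P-values of the tissue and driver tests measure the spread between clones. With clone as a block, those between tissues measure the spread of the differences within clones. In the clone effect the spread between clones is set against that between siblings of a clone. Clone and animal cannot be told apart. Overlaps, isoform numbers and phi are descriptions, computed in Python 3.11.15 with numpy 2.4.6 and pandas 2.3.3; figures used matplotlib 3.10.9. Siblings come from one animal by design, so the clone letter pairs cells of different tissue; across genes, the correlation of siblings after removing tissue means was -0.0226 to 0.0663, above 0.1 in 0 of 9 pairs. Named isoforms are every one past a threshold, up to 6 per direction with the smallest p (6 in all for the clone effect), those in the most and fewest cells of each group, the C-type genes, the 3 highest values, those shared in the clones of highest overlap and up to 3 per related list. Other isoforms and genes named were chosen after their values were seen.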

Additional observations from a re-analysis of the deposited data

How the results depend on the processing

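No isoform passed the limma threshold (adjusted p of 0.05) in any comparison under any alternative run: other pseudocounts (0.1 and 10), no filter, detected genes as a covariate, no trend and robust, quantile normalisation, without the clone B library, leaving out each clone (drivers) and the replicate block (tissues). Sibling minus non-sibling overlap stayed at or below 0 in each of its 12 alternatives, within its spread over clones: -0.00348 at a cutoff of 0.1, -0.0217 at a cutoff of 10, -0.0129 against all non-sibling pairs and -0.000836 in the 8 clones with 10000 or more genes in both cells. Isoforms per cell in sSC minus dSC was 0.190 at a cutoff of 10, -2.33 with the replicate block (within clones) and -0.604 without B.2 and H.1, the last chosen after the data were seen. Across drivers, leaving out 1 clone gave -3.47 to -0.216. Without the filter the clone effect gave 60 genes past the threshold in place of 3, with 0 of the 52 isoforms among them. Of 274 differences of single genes under settings that can alter them, 15 changed sign; 0 of 36 sibling correlations did, and none of either passed the threshold. With quantile normalisation, which moved the median of all genes from -0.31 to -0.14 between tissues and from -0.38 to -0.05 between drivers, Pcdhac2 (0.0404) and Pcdh15 (0.31) between tissues and Pcdhb22 (0.19) and Pcdhb12 (0.0858) between drivers did. Pcdhb12 between drivers, at -0.03, was also 0.27 with detected genes as a covariate, 0.11 without the clone B library and 0.11 to 0.51 without clone B, C, I, K, L, N, R, S or T; the cause was not tested. Depth is unknown, so an isoform below 1 cannot be told apart from one not captured.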
